A study of Mus musculus with 6 samples.

Results

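The genes described here are 9 members of the transforming growth factor beta (TGF-beta) pathway, chosen by name for their role. They are the ligands Tgfb1, Tgfb2 and Tgfb3, the receptors Tgfbr1, Tgfbr2 and Tgfbr3, the latent binding protein Ltbp1, and the inhibitors Bambi and Smad7. These genes and the other lists used below were chosen with earlier results of these data known. The array annotation gave them 21 single-gene probe sets of 45101, and each gene was read at its probe set with the highest mean over the arrays, as were all 18194 genes. RNA came from Flk1-positive blast colony-forming cells sorted from day 4 embryoid bodies, the culture counterpart of the haemangioblast, from which blood and endothelium both arise. The bodies were grown without leukaemia inhibitory factor from Ldb1+/+ or Ldb1-/- mouse embryonic stem cells. Each genotype had 3 arrays of biological replicates numbered 1 to 3. The labels do not say how many stem cell clones stand behind a genotype, which part of Ldb1 was deleted, or what a number shares between genotypes.

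TGF-beta ligands are secreted in a latent form, held by their own propeptide and by latent TGF-beta binding proteins in the matrix. Once released, a ligand binds the type II receptor, which recruits and phosphorylates the type I receptor, and that receptor phosphorylates SMAD2 and SMAD3, which enter the nucleus with SMAD4. In early mesoderm and endothelium the pathway is known for its part in vessel formation and for holding back the growth of blood progenitors. LDB1 is a nuclear adaptor that joins LIM-domain proteins to GATA and TAL1 factors at DNA.

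None of the 9 genes passed the test for a difference between Ldb1-/- and Ldb1+/+ cells. Differences ran from −0.20 (Ltbp1) to 0.36 (Tgfbr2) on the log2 scale, with a median of −0.01 over the 9 genes and −0.01 over all genes tested. In limma 0 of 9 had an adjusted p under 0.05, against 0.0220% of all genes, and 0 of 9 had an unadjusted p under 0.05, against 3.85%. With the replicate number as a block, which compares arrays within a number, the counts were 0 of 9 against 0.341%, and 1 of 9, Tgfbr2, against 8.94%. The groups overlapped for every one of the 9 genes, whereas they did not for 7.92% of all genes. What did differ was the level between replicate numbers: 5 of the 9 genes, Tgfb1, Tgfb2, Tgfbr2, Tgfbr3 and Ltbp1, passed a test of the number, against 9.14% of all genes. In bulk RNA, fewer cells of a type and less RNA per cell cannot be told apart.

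**Figure D1:**
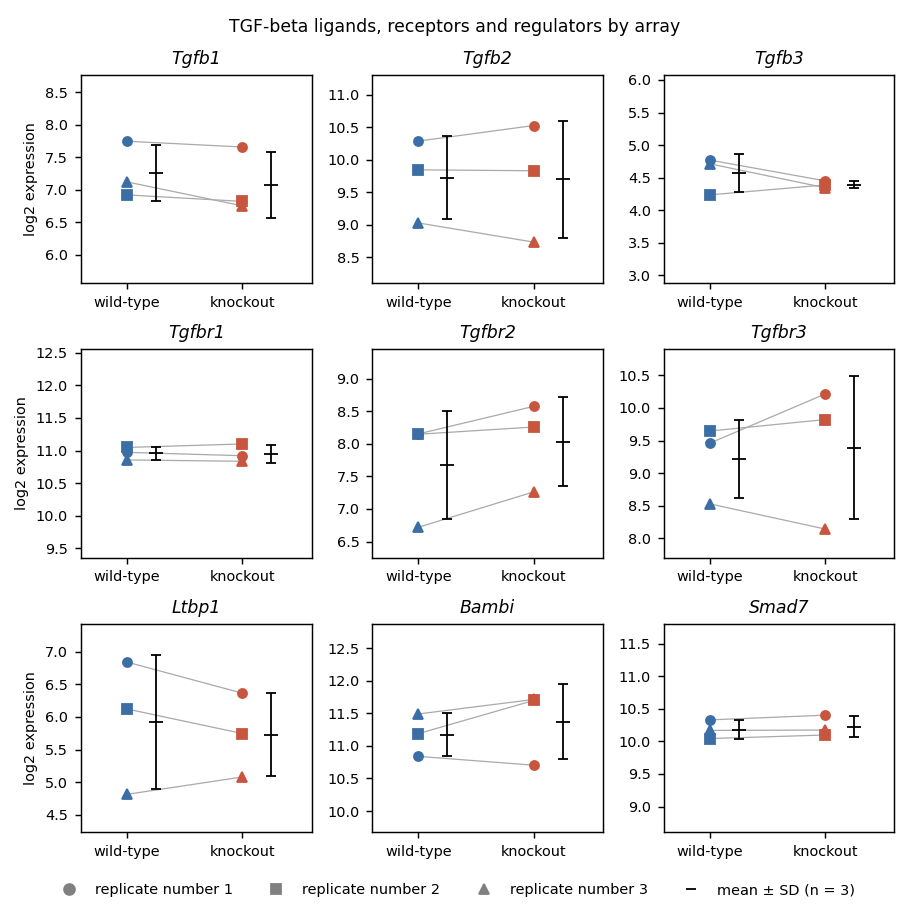
Log2 expression of the 9 genes on each array (points, shaped by replicate number and joined within a number), with the mean ± SD of 3 arrays per genotype as bars. Every panel spans the same number of log2 units. The genotypes overlap in all 9 panels, and Tgfb2, Tgfbr2, Tgfbr3 and Ltbp1 are lowest in both arrays of number 3.

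Facts of the arrays bear on all values below. The targeted gene read 7.78, 7.31 and 8.31 in wild-type and 7.25, 6.60 and 8.25 in knockout arrays 1 to 3, lower in all 3 pairs but not past the test (limma, adjusted p = 1.00; blocked 0.481). The sorted marker Kdr, which encodes Flk1, had means of 12.12 ± 0.33 and 11.70 ± 0.44 (SD, n = 3). Both number 3 arrays stood apart in control probe sets: the 3′ probe set of 18S ribosomal RNA read 11.93 and 12.10 there and 8.51 to 9.39 on the other arrays, and the 5′ probe set of Gapdh 12.93 on both and 10.19 to 11.11 elsewhere. Levels of the other genes listed for Flk1-positive mesoderm and haemangioblast varied. Etv2 read 11.30 to 12.56, Lmo2 10.77 to 12.19 and Tal1 9.33 to 10.87. Fli1 read 5.62 to 7.98, Cdh5 4.49 to 7.32 and Pecam1, also a gene of mature endothelium, 4.31 to 5.29.

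Tgfb1, the ligand best known for restraining blood and immune cells, read 7.75, 6.92 and 7.12 in wild-type arrays 1 to 3 and 7.66, 6.82 and 6.75 in knockout arrays 1 to 3. The number 1 array of each genotype was the highest, and the ranges overlapped. The knockout minus wild-type difference was −0.19 (SE 0.31; 95% interval −0.93 to 0.56), with limma's adjusted p at 1.00. Within numbers it was −0.09, −0.10 and −0.37, so that Tgfb1 was the 1 gene of the 9 lower in all 3 pairs, as were 14.9% of all genes. A block on the number narrowed the interval to −0.50 to 0.13 (adjusted p = 0.825). Its other probe set differed by 0.11 and was higher in all 3 pairs, so the probe sets disagree in sign.

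Tgfb2, the ligand with roles in heart and cushion formation, read 10.29, 9.84 and 9.03 in wild-type and 10.53, 9.83 and 8.73 in knockout arrays. Knockout minus wild-type was 0.24, −0.01 and −0.29 within numbers, while the means of the numbers spanned 1.52. The mean difference was −0.02 (SE 0.50; interval −1.22 to 1.17), or −0.38 to 0.33 with the block (limma, adjusted p = 1.00 and 0.990). Of the other 3 probe sets of Tgfb2, 1 followed the same course, at 10.10, 9.76 and 8.78 in wild-type and 10.18, 9.75 and 8.68 in knockout arrays. Another stayed between 9.03 and 9.37 on all 6 arrays, and the last, at 5.00 to 5.83, was again lowest in number 3. The drop in number 3 was therefore not shared by every probe set of the gene. Their genotype differences were −0.01, 0.04 and −0.04.

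Tgfb3, a ligand of palate and lung development, read 4.77, 4.24 and 4.71 in wild-type and 4.45, 4.39 and 4.35 in knockout arrays. These values lie near the arrays' lower quartiles, which ran from 4.22 to 4.37, so the probe set is little brighter than the dim ones of the array. The difference was −0.18 (SE 0.17; interval −0.59 to 0.23) and did not pass (limma, adjusted p = 1.00; blocked 0.884).

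Ltbp1, which tethers latent ligand to the matrix, read 6.84, 6.12 and 4.81 in wild-type and 6.37, 5.75 and 5.08 in knockout arrays. Both number 3 arrays lay below the other 4, and the knockout values lay within the wild-type range. The difference of −0.20 (SE 0.55; interval −1.50 to 1.11) was −0.48, −0.38 and 0.27 within numbers 1, 2 and 3 (limma, adjusted p = 1.00; blocked 0.897). The other probe sets of Ltbp1, at 4.60 to 4.92 and 3.29 to 3.51, differed by −0.12 and −0.07.

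Tgfbr1, the type I receptor kinase ALK5, showed the least variation of the 9 genes. It read 10.97, 11.05 and 10.86 in wild-type and 10.92, 11.10 and 10.83 in knockout arrays. The genotype difference was −0.01 with an interval of −0.32 to 0.31 (limma, adjusted p = 1.00; blocked 0.997). A difference of more than 0.32 in either direction lies outside that interval. Its remaining probe sets read 3.91 to 4.18 and 3.33 to 3.58, below the lower quartile. The dimmer of them was the 1 of 21 probe sets whose genotypes did not overlap, against 7.49% of all probe sets, at 3.33 to 3.39 in wild-type and 3.50 to 3.58 in knockout arrays; it did not pass (limma, adjusted p = 1.00; blocked 0.883).

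Tgfbr2, the type II receptor kinase that binds ligand first, had the largest genotype difference of the 9 genes. It read 8.15, 8.15 and 6.72 in wild-type and 8.58, 8.26 and 7.26 in knockout arrays. The knockout array was the higher one in every pair, by 0.42, 0.11 and 0.54, while both number 3 arrays lay below all others. The mean difference was 0.36 (SE 0.49; interval −0.80 to 1.52; limma, adjusted p = 1.00), a ratio of 1.28. With the block the SE fell to 0.14 and the interval to 0.02 to 0.70, and the gene again did not pass after adjustment (unadjusted p = 0.0395, adjusted p = 0.508). The other probe sets of Tgfbr2, both dim at 4.97 to 5.27 and 3.32 to 3.58, had the higher value in knockout cells in every pair as well, by means of 0.16 and 0.10. A gene higher in all 3 pairs is common in these data, at 13.5% of all genes, and 2 of the 9 were, Tgfbr2 and Smad7. Without wild-type replicate 3, with knockout replicate 3 kept, the difference was −0.12, which turned its direction. In the blocked fit without the arrays of number 1, 2 or 3 in both genotypes it was 0.33, 0.48 and 0.27.

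Tgfbr3, betaglycan, a coreceptor that presents TGF-beta2 and also binds inhibin, varied most over the arrays. It read 9.46, 9.65 and 8.53 in wild-type and 10.21, 9.82 and 8.14 in knockout arrays. The knockout values thus enclosed the wild-type ones. Within numbers the difference was 0.76, 0.18 and −0.39, with a mean of 0.18 (SE 0.57; interval −1.17 to 1.53; limma, adjusted p = 1.00; blocked 0.935). Its second probe set was dim, at 4.49 to 5.20, and differed by −0.08.

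Bambi, a pseudoreceptor without a kinase domain that blocks type I receptors and is itself a target of BMP and TGF-beta signalling, read 10.84, 11.19 and 11.49 in wild-type and 10.70, 11.70 and 11.71 in knockout arrays. Here number 1 was the low one in both genotypes, opposite to Tgfb1. The difference was 0.20 (SE 0.31; interval −0.55 to 0.95; limma, adjusted p = 1.00; blocked 0.862), and −0.14, 0.51 and 0.22 within numbers.

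Smad7, the inhibitory SMAD that is induced by the pathway and shuts off its receptors, read 10.33, 10.04 and 10.17 in wild-type and 10.40, 10.10 and 10.18 in knockout arrays. The difference was 0.04 (SE 0.15; interval −0.30 to 0.39; limma, adjusted p = 1.00; blocked 0.977), with 0.07, 0.05 and 0.01 within numbers. The second probe set, at 8.19 to 8.83, differed by −0.08, so its sign was opposite.

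**Figure D2:**
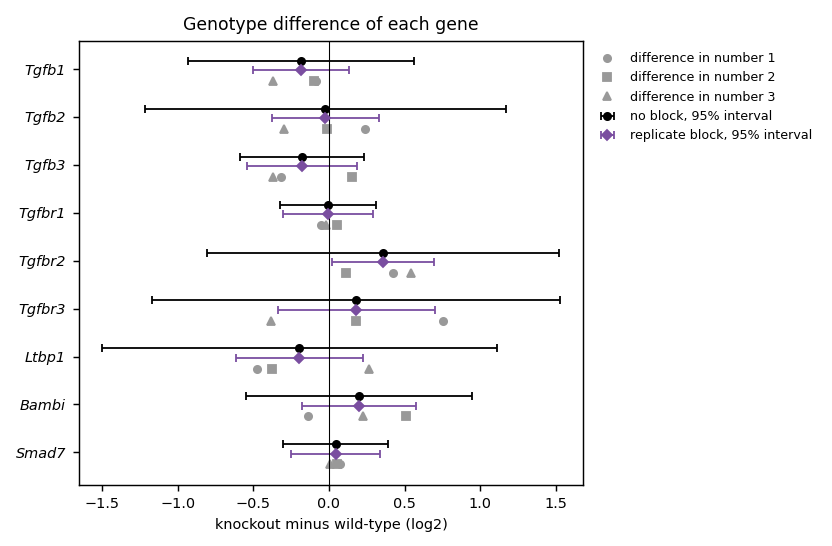
Knockout minus wild-type difference of each gene in log2 units, with 95% intervals from the fit without a block (circles) and with a block on the replicate number (diamonds); grey symbols are the differences within each number. All 9 unblocked intervals hold 0, and the blocked interval of Tgfbr2, 0.02 to 0.70, does not.

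Replicate numbers lay far apart in several of these genes. The 9 genes had a median spread of 0.83 between the means of the highest and lowest number, and all genes tested one of 0.32. Their median SD within a genotype was 0.47, and that of all genes 0.23. The test of the number, chosen after these values were seen, was the number term of limma's fit with genotype and number, adjusted over all genes. It gave adjusted p of 0.0169 for Tgfbr2, 0.0178 for Tgfb2, 0.0204 for Ltbp1, 0.0306 for Tgfbr3 and 0.0391 for Tgfb1. For Bambi it was 0.0727, for Smad7 0.461, for Tgfb3 0.585 and for Tgfbr1 0.638. Between numbers Ltbp1 spanned 1.66 (means of 6.60, 5.93 and 4.94 in numbers 1, 2 and 3), Tgfb2 1.52, Tgfbr3 1.50 and Tgfbr2 1.37. For 5 of the 9 genes, those 4 and Tgfbr1, both arrays of number 3 lay below the other 4, as they did for 19.0% of all genes. Bambi and Tgfb1 spanned 0.83 each.

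The count of 5 was 1 when the probe sets of a gene were averaged, 3 after a repeated quantile normalisation, and 1 without the number 1 arrays. The 18S and 5′ control values given above set number 3 apart in the same arrays, and their part in these levels was not tested.

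**Figure D3:**
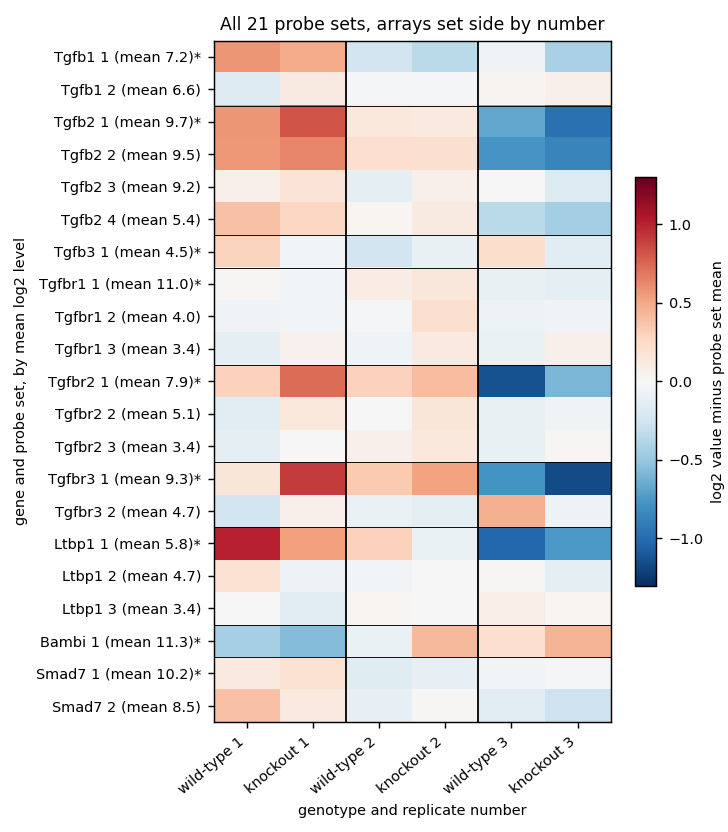
The 21 probe sets (rows, grouped by gene; an asterisk marks the one used) on the 6 arrays, set side by replicate number; colour is the log2 value minus the probe set's mean. The used probe sets of Tgfb2, Tgfbr2, Tgfbr3 and Ltbp1 are below their means in both number 3 columns, while the third Tgfb2 probe set, between 9.03 and 9.37 throughout, is nearly flat.

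Genes with the most similar course over the 6 arrays were sought for the 3 genes of largest SD, among 9090 genes above the median level. The measure was the root mean square difference between centred log2 values. For Tgfbr3 (SD 0.80) these were the VEGF receptor gene Flt1 at 0.161, Arap3 at 0.183 and Fgf13 at 0.217. For Ltbp1 (SD 0.78) they were Zfyve26, Sbk1 and Dnaaf5, at 0.091 to 0.092. For Tgfbr2 (SD 0.71) they were Sall2 at 0.089, Atf7 at 0.092 and Antxr2 at 0.108. None of these genes passed between genotypes in limma, with blocked adjusted p from 0.267 for Antxr2 to 0.992 for Fgf13.

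Beyond the 9 genes, 68 of 71 other genes named for the pathway were measured, and the others were not analysed here. In limma 0 of the 68 passed without the block, and with it 1 did, the target gene Tgfbi. At an unadjusted p under 0.05 stood 5 of 68 without the block, against 3.85% of all genes, and 13 with it, against 8.94%. The groups did not overlap for 5 of 68, against 7.92% of all genes, a share near that background, and these 5 were target genes. The median difference was 0.02, with 35 genes higher and 33 lower.

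Among 14 genes of the latent complex and its activation 6 were higher and 8 lower, with a median of −0.08 and 0 called in either fit. The gelatinase gene Mmp2 averaged 11.23 ± 0.50 in wild-type cells against 10.92 ± 0.60 in knockout cells (SD, n = 3), and Itgav, an integrin chain that frees latent ligand, at 9.86 ± 0.74 and 10.11 ± 0.63. Itgb8, its activating partner, was higher in all 3 pairs, by a mean of 0.44 at levels of 3.32 to 4.31 (blocked adjusted p = 0.360). Those levels are dim, near or below the arrays' lower quartiles of 4.22 to 4.37. Furin, the protease that cuts the ligand propeptide, was also higher in all 3 pairs, by 0.33 (blocked adjusted p = 0.496). Going the other way, the integrin gene Itgb5 read 10.51, 9.96 and 9.92 in wild-type and 10.01, 9.51 and 9.81 in knockout arrays. Its difference was −0.35 (blocked adjusted p = 0.519), with −0.50, −0.45 and −0.11 within numbers. Mmp2 was likewise below wild-type in each pair. Over all genes, 13.5% were higher in every pair and 14.9% lower. Itgb8, Furin and Itgb5 were chosen after their values were seen.

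Of 6 other receptors of the family 3 were higher and 3 lower, with a median of 0.00 and 0 called. Acvr1b, the activin type I receptor, had means of 10.22 ± 0.27 and 10.17 ± 0.28, and Acvr2b, an activin type II receptor, 10.24 ± 0.75 and 9.87 ± 0.65 (SD, n = 3). Eng, the endothelial coreceptor endoglin, differed by −0.05, and Acvrl1, the endothelial type I receptor, by 0.06 at 4.58 to 5.17.

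The 19 SMADs and their regulators had a median of −0.03, with 9 higher, 10 lower and 0 called. Differences of the signalling SMADs were 0.04 for Smad2, −0.20 for Smad3 and −0.07 for Smad4. Fkbp1a, which guards the type I receptor from leaky signalling, had means of 13.22 ± 0.12 and 13.15 ± 0.21, and Strap, which recruits Smad7 to receptors, 12.35 ± 0.15 and 12.30 ± 0.09 (SD, n = 3). Pmepa1, a feedback inhibitor induced by TGF-beta, read 8.18, 6.84 and 6.97 in wild-type and 8.96, 7.11 and 7.62 in knockout arrays. It was higher in every pair, by a mean of 0.57, but did not pass (limma, adjusted p = 1.00; blocked 0.271). Among 6 extracellular inhibitors 2 were higher and 4 lower, with a median of −0.04 and 0 called. Fst, follistatin, a binder of activins, differed by 0.68, or 0.67, −0.26 and 1.62 within numbers, and Htra1, a secreted protease, by −0.31.

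Tgfbi, whose name means TGF-beta induced and whose product is a matrix protein, was the 1 pathway gene called. It read 7.24, 6.38 and 5.96 in wild-type and 8.75, 7.57 and 7.90 in knockout arrays. Every knockout value lay above every wild-type one. The difference of 1.55 passed limma with the block (SE 0.17; adjusted p = 0.0251) and not without it (SE 0.41; adjusted p = 0.761), and was 1.51, 1.19 and 1.95 within numbers. Its other probe sets were higher too, by 1.00, 1.45 and 1.80. With every probe set tested, no Tgfbi probe set passed limma with the block. There the adjusted p was 0.0687 for the probe set used, and 0.267, 0.115 and 0.0616 for the others in that order. With only the probe set of 1.00, the others being of a kind that can bind several transcripts, the blocked adjusted p was 0.130.

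Of the 23 target genes measured, 15 were higher and 8 lower in knockout arrays, with a median of 0.22, where all genes had −0.01. The list was chosen with earlier results of these data known, so its shares beside those of all genes are no independent test. The groups did not overlap for 5 of the 23, against 7.92% of all genes. These were Tgfbi and, named here after their values were seen, Acta2, Tagln, Id1 and Timp1. Acta2, smooth muscle actin, read 8.56, 8.01 and 8.70 in wild-type and 9.22, 8.94 and 9.39 in knockout arrays. Tagln, the actin-binding protein SM22, read 8.44, 8.04 and 8.13, and 9.40, 8.54 and 8.96. Knockout arrays were higher in all 3 pairs for both, by 0.76 each, and limma's blocked adjusted p was 0.0981 and 0.123. Id1, an inhibitor of bHLH factors that BMP signalling induces, was higher by 0.69 (blocked adjusted p = 0.262) and Timp1, a metalloproteinase inhibitor, by 0.50 (0.255). Cdkn2b, a cell cycle inhibitor that TGF-beta induces in epithelium, was higher in all 3 pairs by 0.76 (blocked adjusted p = 0.304). Fn1, fibronectin, had means of 13.32 ± 0.58 and 13.38 ± 0.58, and Tsc22d1, a leucine zipper gene, 13.28 ± 0.12 and 13.50 ± 0.11 (SD, n = 3). Snai2, a transcription factor of mesenchymal transition, differed by −0.75, or −1.05, 0.75 and −1.93 within numbers, and Bhlhe40, a bHLH repressor, by −0.63. Without the number 3 arrays, limma with the block called 815 of all 18194 genes and 6 of the 68 pathway genes. These were Tgfbi, Acta2, Tagln, Cdkn2b and Col1a2 as higher and Acvr2b as lower. Without the number 2 arrays it called 267 of all genes and 4 of the 68, with Tgfbi and Fst higher and Snai2 and Bhlhe40 lower. With all arrays the blocked counts were 62 and 1.

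**Figure D4:**
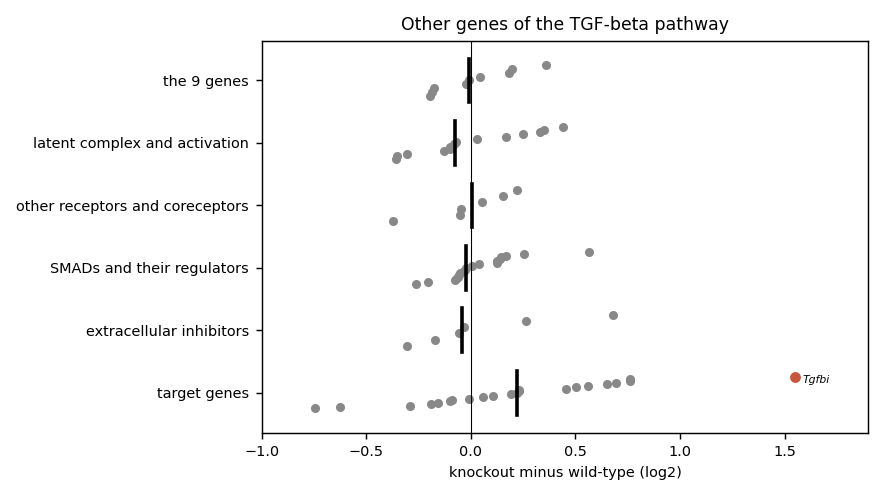
Knockout minus wild-type difference (log2) of the 9 genes and of 68 other pathway genes in 5 groups; each point is a gene, the bar is the group's median and the coloured point passed limma with the block. Target genes have a median of 0.22, and Tgfbi, at 1.55, is the only coloured point.

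Of 8 markers of smooth muscle and fibroblasts, 4 were higher and 4 lower in knockout arrays, with a median of 0.12, and Acta2, Tagln, Col1a1 and Col3a1 are also on the list of target genes. The summed level of the 8 markers, as log2 of the sum, was 9.90 to 10.41 in wild-type and 10.45 to 10.95 in knockout arrays. The sum adds unlogged values, so bright genes weigh most in it. Acta2 and Tagln were the brightest, with means over the arrays of 8.80 and 8.58, and Cnn1 came next at 7.52. The separated sum therefore leans on Acta2 and Tagln and is not evidence apart from them. The groups did not overlap for 2 of the 8, against 7.92% of all genes. Those were Acta2 and Tagln, which are the target genes described above. Thy1 and Cnn1, which are not on the target gene list, were higher in all 3 pairs, as were 13.5% of all genes. Their mean differences were 0.81 and 0.29 (limma, blocked adjusted p = 0.0981 and 0.686). Col1a1, Col3a1, Myh11 and Dcn were lower, by means of −0.19, −0.09, −0.05 and −0.06. Myh11, of mature smooth muscle, read 5.39 to 5.57, and Col3a1, of fibroblasts, 3.30 to 3.75, near background. Among markers of embryonic stem cells 4 of 5 were higher, with overlapping sums of 10.18 to 10.26 in wild-type and 10.08 to 11.42 in knockout arrays. The highest sum was that of knockout array 3. Pou5f1 read 10.82 there and 8.85 to 9.65 on the other arrays, and Nanog 9.26 and 7.78 to 8.10. Blood markers were lower for 5 of 6, with sums of 9.79 to 10.07 and 8.16 to 8.45. The groups did not overlap for 4 of these 6, against 7.92% of all genes. Hbb-bh1, a globin gene, differed by −3.89 and passed limma in both fits (adjusted p = 0.00494; blocked 0.00101). Gata1 differed by −1.31 and passed limma only with the block (adjusted p = 0.0542; blocked 0.0194). Sums overlapped between genotypes for Flk1-positive mesoderm (13.34 to 13.69 and 13.44 to 14.10), cardiac and paraxial mesoderm (12.35 to 13.38 and 11.71 to 12.61), visceral endoderm (8.77 to 9.13 and 7.99 to 8.998) and neural ectoderm (8.08 to 8.73 and 8.26 to 8.69). Overlapping sums can hide single genes. Of the cardiac and paraxial markers 5 of 6 were lower, and Hand2 did not overlap, with means of 10.05 ± 0.65 and 7.35 ± 0.52 (SD, n = 3). Hand2 passed limma with the block (adjusted p = 0.00103) and not without it (adjusted p = 0.174). The part of these cell types in the target gene values was not tested.

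Promoter sequence was at hand for 5 of the 9 genes, Tgfb1, Tgfb2, Tgfbr1, Tgfbr2 and Ltbp1, from RefSeq on GRCm38.p6, and for Tgfbi. The 250 bases before a start are printed for Tgfb2 and Tgfbr2, which followed the replicate number together, and for Tgfbi, the gene called, each on its own strand. Capitals mark the SMAD core CAGAC, or GTCTG where it lies on the other strand, and a GATA site, taken as AGATAA or AGATAG or TGATAA or TGATAG on either strand. The windows are chr1:186705990-186706239 (minus strand) for Tgfb2, chr9:116175364-116175613 (minus strand) for Tgfbr2 and chr13:56609336-56609585 (plus strand) for Tgfbi.
Tgfb2: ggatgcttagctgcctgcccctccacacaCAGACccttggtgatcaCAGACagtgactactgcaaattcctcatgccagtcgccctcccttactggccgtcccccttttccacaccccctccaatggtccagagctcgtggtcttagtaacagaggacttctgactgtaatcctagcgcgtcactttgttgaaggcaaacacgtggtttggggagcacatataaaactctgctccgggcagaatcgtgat
Tgfbr2: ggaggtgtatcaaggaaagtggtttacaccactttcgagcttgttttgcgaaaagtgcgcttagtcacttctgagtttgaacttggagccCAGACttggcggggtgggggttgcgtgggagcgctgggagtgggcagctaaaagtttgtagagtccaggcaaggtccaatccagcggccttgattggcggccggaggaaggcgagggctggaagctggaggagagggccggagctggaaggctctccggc
Tgfbi: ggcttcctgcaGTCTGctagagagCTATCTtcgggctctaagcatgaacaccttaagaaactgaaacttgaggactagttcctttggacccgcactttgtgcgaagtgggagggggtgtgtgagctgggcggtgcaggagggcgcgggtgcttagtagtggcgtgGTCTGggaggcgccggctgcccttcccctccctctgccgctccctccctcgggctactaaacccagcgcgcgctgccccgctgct

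The Tgfb2 window held CAGAC at 221 and 204 bases before the start and the Tgfbr2 window at 160. That of Tgfbi held GTCTG at 239 and 85 and the letters CTATCT, which match GATA on the other strand, at 226. No marked matches overlapped. The 5 genes had 7 windows, since Tgfbr1 and Ltbp1 had 2 each, and a gene counted if any of its windows matched. The shares over all promoters count single windows, so the units differ. A CAGAC match stood in a window of 4 of the 5 genes and in 42.2% of all promoters of this length, and a GATA match in 0 of the 5 and in 26.5%. The E-box CANNTG, the letters bound by TAL1 and its partners among others, was found for 3 of the 5 genes and in 66.2% of all promoters. In Tgfb2 it was CACGTG, 51 bases before the start. These are matches of letters and no measure of binding.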

How the data were processed

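RNA was measured in 6 samples on Affymetrix Mouse Genome 430 2.0 arrays. The authors deposited log2 expression values per probe set. Per the submitters' processing notes RMA and affy were used, with versions not given in the sources used here. RMA brings arrays towards a common distribution, which can hide a shift of all genes. The deposited values still differed in distribution, with an upper quartile of 7.924 in wild-type array 3 and 8.147 to 8.275 on the others. Of 45101 probe sets 64 were controls, 34945 had exactly 1 gene, 932 several and 9160 none. Per gene, the probe set with the highest mean was fitted with limma 3.58.1 in R 4.3.3 (lmFit, eBayes), with Benjamini-Hochberg adjustment over 18194 genes and a threshold of 0.05. A second fit had the replicate number as a block. Arrays of the same number deviated together from their genotype means (correlations across probe sets of 0.698, 0.350 and 0.446, all above 0.1), so blocked values are given. p-values and intervals measure the spread between these arrays, and few arrays mean limited precision. The fits without and with the block and the number term were also run on simulated data, with outcomes not given here. The other alternative fits were not.

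The 9 genes were named all with their probe sets, together with Ldb1 and Kdr. From each pathway list the rule took up to 3 called genes and 2 others of highest mean; other genes named are said to be, or were, chosen after their values were seen (Eng, Acvrl1, Smad2, Smad3, Smad4, Pmepa1, Cdkn2b, Snai2, Bhlhe40 and Col1a2 among them). Members and lists were chosen with earlier results of these data known. Alternatives were the block, arrays left out singly or by number, dim genes left out, other normalisations, variance models, array weights and probe set choices; the number test and the block with dim genes left out were added after seeing the data. Promoters came from RefSeq tables (GRCm38.p6). Figures used matplotlib 3.10.9 in Python 3.11.15.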

Additional observations from a re-analysis of the deposited data

How the results depend on the processing

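The count of 0 called among the 9 genes held in all 22 alternatives, as did the absence of any call for each single gene, with the lowest limma adjusted p at 0.097, for Ltbp1. Over all genes the count of 4 was 62 with the replicate block, 58 with the block and only genes above the median level, 58 with the block and without probe sets marked _x_ or _s_, 48 with the block and averaged probe sets, 68 with array weights and 10 with every probe set tested. With arrays left out, singly or by number, it ran from 1 to 815, with 50, 267 and 815 for the blocked fit without the arrays of number 1, 2 and 3. Pathway genes called, 0 without the block, were 1 with the block, 1 with the block and only genes above the median level, 1 with the block and averaged probe sets, and 0 to 6 with arrays left out. The median of the 9 genes, −0.01, ran from −0.21 to 0.12 with arrays left out, lowest without knockout replicate 1 and highest without wild-type replicate 1, and was 0.064 with the block and without number 3. The count of genes that differed between numbers, 5, was 3 after repeated quantile normalisation and 1 with averaged probe sets, and ran from 1 to 6 with arrays left out.

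Directions of single genes were not firm. With arrays left out the differences ran from −0.48 to 0.056 for Tgfb1, −0.44 to 0.46 for Tgfb2, −0.081 to 0.052 for Tgfbr1, −0.12 to 0.74 for Tgfbr2, −0.23 to 0.81 for Tgfbr3, −0.75 to 0.26 for Ltbp1 and −0.045 to 0.12 for Smad7, while Tgfb3 (−0.35 to −0.079) and Bambi (0.028 to 0.53) kept their sign. Where a number was left out of both genotypes, the blocked fit kept the sign of Tgfb1, Tgfbr2, Ltbp1 and Smad7 each time. Their changes of sign with arrays left out came with a single array removed, which leaves the genotypes with different replicate numbers. In the blocked fit Tgfbr1 was 0.016 and Tgfbr3 −0.11 without the number 1 arrays, and Tgfb2 was 0.11 and Tgfbr1 9e-04 without those of number 3. With array weights Tgfb3 was 0.065 and Tgfbr3 −0.052. With averaged probe sets, with or without the block, Tgfbr1 was 0.084 and Smad7 −0.020, and with the probe set of largest SD Smad7 was −0.085. The cause of these changes was not tested. Tgfbi was called in 6 of 22 alternatives, each of them with the block, and was higher in knockout cells in all 22. The blocked fit of every probe set was not among the 22, and there it did not pass (limma, adjusted p = 0.0687). Genes below the median level gave no value in the filtered fits, which held 7 of the 9 genes.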
